A study of Mus musculus with 2 samples.

Results

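Glycolysis, lactate handling and the pentose phosphate pathway were followed step by step through 39 named genes of mouse haematopoietic stem cells, from which every blood lineage is renewed. Members were the probe sets annotated to only 1 gene, that gene being on the list, which gave 73 of the 45037 probe sets and 34 of the 39 genes. The other 5 (Gpi1, Gapdh, Eno1, Pfkfb1 and G6pdx) had no probe set annotated to them alone and were not analysed here. Total RNA was hybridised to Affymetrix expression arrays from Wip1 knockout stem cells (1 array) and from wild-type stem cells (1 array), both from animals of 3 months. Wip1, the product of Ppm1d, is a phosphatase known for switching off p53 and DNA damage signalling. Strain, sex, the knockout allele, the sorting gate and the number of animals behind each array are not stated in the sources used here. With 1 array per genotype no test across samples can be made, no value has a replicate error, and genotype cannot be told apart from any other difference between the 2 preparations.

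Glycolysis turns glucose into pyruvate in the cytosol and yields ATP without oxygen. Lactate dehydrogenase then converts pyruvate to lactate, which leaves the cell, or pyruvate enters mitochondria through pyruvate dehydrogenase, which the PDK kinases switch off. The pentose phosphate pathway branches off at glucose 6-phosphate and supplies NADPH and ribose. Quiescent stem cells of the marrow are known to rely strongly on glycolysis, with HIF-1 and PDK kinases described as keeping pyruvate out of mitochondria. Many steps have several isozymes, encoded by different genes and typical of different tissues.

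Values below are deposited intensities in arbitrary linear units, and differences are log2 knockout minus wild type, centred so that the median over all detected probe sets of named genes is 0. A probe set counted as detected when at least 1 array lay above that array's median over all probe sets (25.9 in the knockout and 25.2 in the wild type), called the floor here. Each gene was represented by its brightest probe set. The only error the data hold is the disagreement between probe sets of 1 gene, whose SD was 0.22 on the log2 scale (1.16-fold) over 5084 genes, and it contains no variation between animals or arrays. Probe sets bind their targets with different strength, so the intensity of one gene cannot be set against that of another. Which isozyme of a step is most abundant therefore cannot be read from these arrays, and isozymes are described by whether they were detected and by how each differed between the arrays.

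Of the 34 genes 31 were detected (91.2%), against 62.9% of all 18193 genes. Eno2, Slc16a3 and Pdk4 lay under the floor on both arrays. Of the 31 detected genes 17 were lower and 14 higher in the knockout, so 54.8% were lower, against 50.6% lower and 49.4% higher among all 11440 detected genes. Their median difference was -0.11, against -0.0031 over all detected genes. By more than the SD between probe sets, 8 members were lower (25.8%, against 16.6% of all detected genes) and 5 were higher (16.1%, against 17.0%). At least 1.5-fold lower was 1 member (1.57% of all detected genes), and at least 1.5-fold higher was also 1 (2.28%). None of the members reached 2-fold in either direction, as 0.210% of all detected genes did downwards and 0.455% upwards. The lower members past the SD sat in glucose uptake, hexokinase, phosphofructokinase, triosephosphate isomerase, lactate production, lactate export and 1 PFKFB regulator, and no pentose phosphate gene was past it. That holds for Rpe (-0.22) only by a narrow margin, since it was past the SD without the centring shift (-0.23). The higher ones were the isozymes Pfkm, Aldoc and Ldhb, the regulator Pfkfb4 and Pdha1 of pyruvate dehydrogenase.

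**Figure D1:**
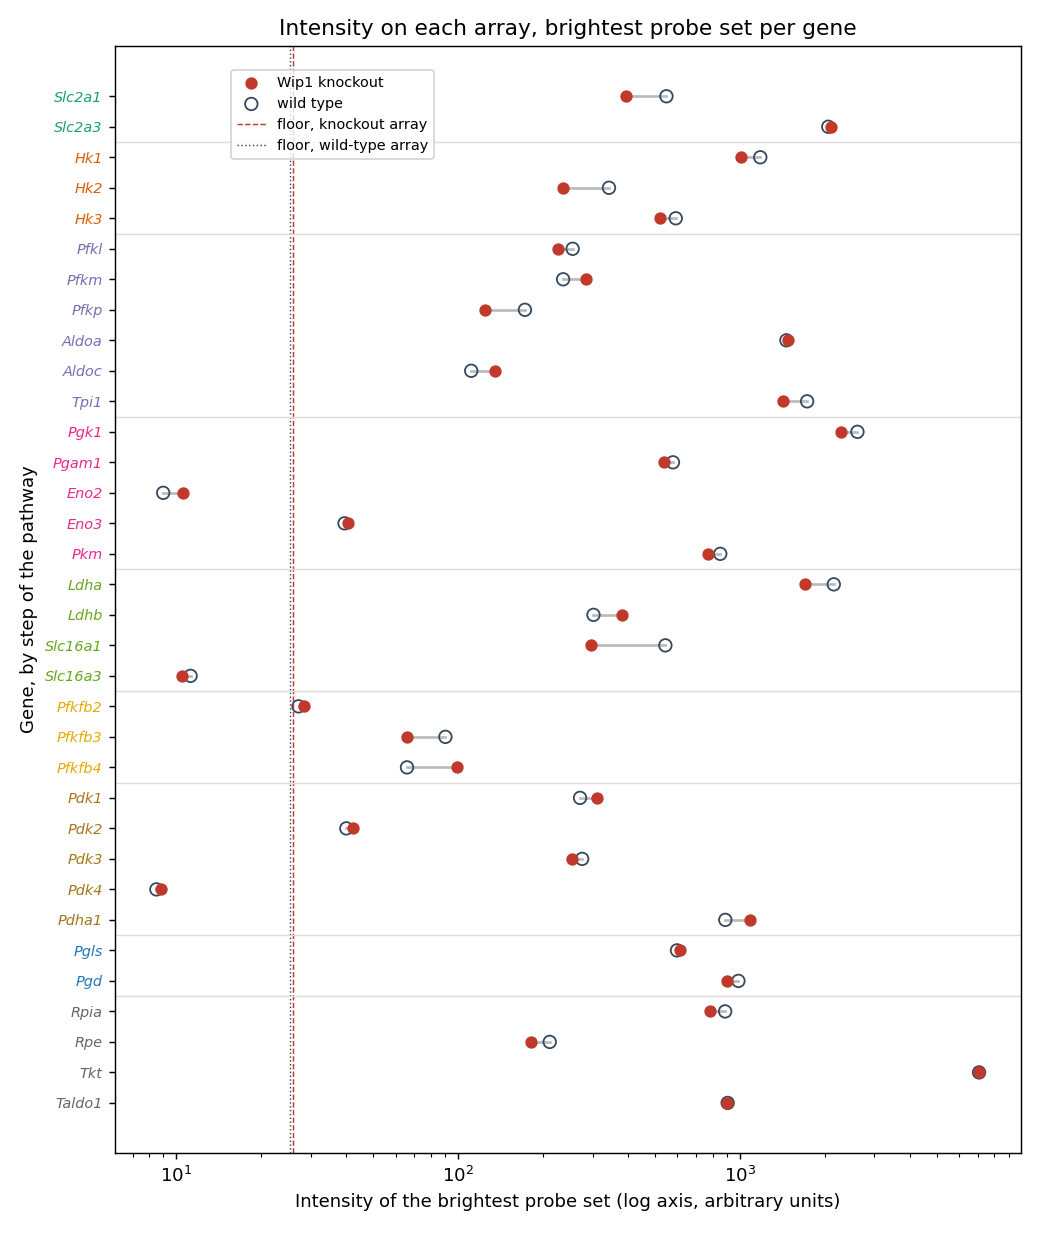
Intensity of the brightest probe set of each of the 34 genes (log axis, arbitrary units), grouped by step from glucose uptake at the top to the non-oxidative pentose phosphate genes at the bottom. Filled red points are the Wip1 knockout array, open points the wild-type array, and vertical lines the floor of each array. Eno2, Slc16a3 and Pdk4 lie left of both lines, and the widest gap is that of Slc16a1 (295 against 544). Positions of different genes cannot be ranked against each other.

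Glucose uptake was represented by the facilitative transporters Slc2a1 (GLUT1) and Slc2a3 (GLUT3), and both were detected. Slc2a1 had an intensity of 394 in the knockout, against 549 in the wild type, by its brightest probe set, a log2 difference of -0.47 (1.38-fold lower). Its other probe sets read 365 in the knockout against 441 in the wild type, and 148 against 176, with differences of -0.26 and -0.24. All 3 were lower by more than the SD, though the size depended on the probe set. Slc2a3 read 2097 in the knockout and 2058 in the wild type (0.04), and 554 against 618 in a second probe set (-0.15). These 2 detected Slc2a3 probe sets belong to the classes _s_at and _x_at, which can also bind related sequences, and its other 2 probe sets were under the floor on both arrays.

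The 3 hexokinases, which trap glucose as glucose 6-phosphate, were each detected and each lower in the knockout. Hk2, the inducible isozyme typical of muscle and tumour cells, read 235 in the knockout, against 343 in the wild type, by its only probe set (-0.54, 1.45-fold lower). Hk1, the broadly expressed isozyme, read 1006 in the knockout and 1181 in the wild type (-0.22), a difference barely past the SD, and inside it after quantile normalization (-0.18) or loess (-0.20). A second and dimmer Hk1 probe set read 53.5 in the knockout and 86.5 in the wild type (-0.68). Hk3, known from white blood cells, read 520 against 592 and 354 against 381 in its 2 probe sets, with differences of -0.18 and -0.09, both within the SD.

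The isozymes of phosphofructokinase, which commits sugar to glycolysis, went in different directions. Pfkp, named for platelets, read 125 in the knockout and 173 in the wild type (-0.46, 1.38-fold lower) by its only detected probe set, and its other 2 were under the floor. Pfkm, named for muscle, was higher, at 285 in the knockout against 236 in the wild type (0.28, 1.22-fold), by its only probe set. Pfkl, named for liver, read 227 against 255 and 138 against 155 (-0.16 each), with 0.04 in the remaining probe set, all within the SD. Thus all 3 were detected, and the 2 that differed by more than the SD did so in opposite directions.

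Aldolase splits fructose 1,6-bisphosphate, and triosephosphate isomerase (Tpi1) interconverts the resulting trioses. Aldoa, the isozyme of muscle and most other tissues, read 1476 in the knockout and 1462 in the wild type (0.02), and its 5 probe sets ranged from -0.19 to 0.07. All 5 belong to the _x_at class. Aldoc, known from brain, read 135 in the knockout against 111 in the wild type (0.29, 1.22-fold higher) by 1 probe set, and the other was under the floor. Tpi1 read 1424 in the knockout against 1732 in the wild type (-0.27, 1.21-fold lower). Its other probe sets read 1186 against 1388 (-0.22) and 846 against 1091 (-0.36), so all 3 agreed in direction.

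Lower glycolysis differed little. Phosphoglycerate kinase (Pgk1), the first ATP-yielding step, read 2284 in the knockout and 2612 in the wild type (-0.18), with -0.07 in each of its other 2 probe sets. Phosphoglycerate mutase (Pgam1) read 539 in the knockout against 579 in the wild type (-0.09), and pyruvate kinase (Pkm), the last ATP-yielding step, 772 against 852 (-0.13). All 3 genes were within the SD. Of the enolases, the muscle isozyme Eno3 was just above the floor at 40.8 in the knockout and 39.5 in the wild type (0.05), and the neuronal isozyme Eno2 was under it at 10.5 and 8.99. The widely expressed enolase Eno1 is 1 of the 5 genes not analysed here, so the enolase step is described only in part.

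Lactate genes held the largest difference of the pathway. Slc16a1 encodes MCT1, a proton-coupled carrier of lactate and pyruvate. It read 295 in the knockout, against 544 in the wild type, a log2 difference of -0.87 (1.83-fold lower). Only 47 of 11440 detected genes had a more negative difference. This rests on 1 probe set, since the other Slc16a1 probe set lay under the floor at 12.5 in the knockout and 13.0 in the wild type. The related carrier Slc16a3 (MCT4), known from strongly glycolytic tissue, was under the floor at 10.4 in the knockout and 11.2 in the wild type.

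The lactate dehydrogenase subunits differed in opposite directions. Ldha, the subunit that predominates in muscle, read 1700.5 in the knockout against 2153 in the wild type (-0.33, 1.26-fold lower) by its only probe set. Ldhb, the subunit that predominates in heart, was higher in the knockout in all 4 probe sets. Their intensities were 382 in the knockout against 302 in the wild type, 403 against 272, 319.7 against 237, and 311 against 234. The differences were 0.35, 0.58, 0.44 and 0.42, with a median of 0.43. Each of the 4 exceeded the SD, but the probe sets share the RNA of the same 2 arrays and are not replicates of the genotype. All 4 also belong to the classes _a_at and _x_at.

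The promoters of the genes that differed most at the lactate step and at the PFKFB step are shown because HIF-1, which is known to bind ACGTG or GCGTG, is a known activator of glycolytic genes. Each is the 250 bases upstream of the annotated start from RefSeq, build GRCm38.p6, on the gene's strand, and capitals mark ACGTG or GCGTG on either strand. Slc16a1 lies at chr3:104638414-104638663 (plus strand), Ldha at chr7:46845554-46845803 (plus strand, the more upstream of 2 starts), Ldhb at chr6:142507958-142508207 (minus strand) and Pfkfb4 at chr9:108991652-108991901 (plus strand).
Slc16a1: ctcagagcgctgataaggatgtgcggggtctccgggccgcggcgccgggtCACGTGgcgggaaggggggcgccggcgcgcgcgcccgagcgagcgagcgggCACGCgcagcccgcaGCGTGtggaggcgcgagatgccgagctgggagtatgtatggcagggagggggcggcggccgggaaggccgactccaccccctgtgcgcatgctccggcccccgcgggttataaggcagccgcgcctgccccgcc
Ldha: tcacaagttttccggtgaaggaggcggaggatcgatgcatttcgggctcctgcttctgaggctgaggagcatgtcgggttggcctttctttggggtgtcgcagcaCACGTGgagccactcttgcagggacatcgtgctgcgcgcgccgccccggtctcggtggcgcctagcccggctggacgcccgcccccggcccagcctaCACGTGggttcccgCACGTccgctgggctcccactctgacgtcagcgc
Ldhb: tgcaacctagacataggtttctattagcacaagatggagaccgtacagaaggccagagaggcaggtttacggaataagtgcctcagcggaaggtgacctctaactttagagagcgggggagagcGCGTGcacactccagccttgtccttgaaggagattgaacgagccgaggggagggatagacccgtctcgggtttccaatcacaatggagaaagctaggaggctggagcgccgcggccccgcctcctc
Pfkfb4: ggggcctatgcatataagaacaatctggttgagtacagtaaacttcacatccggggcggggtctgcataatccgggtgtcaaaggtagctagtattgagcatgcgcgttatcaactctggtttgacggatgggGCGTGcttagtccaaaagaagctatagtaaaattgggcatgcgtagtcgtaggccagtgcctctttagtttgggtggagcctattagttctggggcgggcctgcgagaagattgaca
Ldha had 5 matches and Slc16a1 4, where each CACGTG, the E-box that MYC is known to bind, counts as 2 because it holds ACGTG on both strands (2 such E-boxes in Ldha and 1 in Slc16a1). Ldhb and Pfkfb4, which were higher in the knockout, had 1 match each. The other members past the SD did not divide this way. The lower ones ran from 0 matches (Hk1 and Tpi1) to 3 (Pfkp), and the higher ones from 1 (Aldoc) to 3 (Pdha1).

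Of 30 detected members with a promoter in the table, taking the most upstream start, 25 (83.3%) held ACGTG or GCGTG, against 57.1% of 9289 detected genes and 38.6% of all 27025 promoters. The median GC content was 60.0% in the members and 60.0% in the detected genes, against 52.0% in all promoters. Matches were found in 6 of the 8 members lower past the SD and in 5 of the 5 higher past it, so matches occurred in promoters of genes that differed in either direction. A match to 5 letters describes the sequence only.

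The PFKFB enzymes make and degrade fructose 2,6-bisphosphate, the strongest known activator of phosphofructokinase. Pfkfb4 read 99.4 in the knockout, against 65.9 in the wild type, by its only probe set (0.60, 1.52-fold higher), and 246 detected genes had a more positive difference. Pfkfb3, known for its high kinase activity, read 65.7 in the knockout against 90.2 in the wild type (-0.45, 1.36-fold lower), and its second probe set was under the floor. Pfkfb2, known from heart, was barely detected at 28.5 in the knockout and 27.2 in the wild type (0.08). A second Pfkfb2 probe set was higher by at least 0.12, its wild-type value being under the floor, and 2 more were under the floor on both arrays. The PFKFB genes thus differed in both directions, at low intensities.

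At the entry of pyruvate into mitochondria, Pdha1, which encodes the alpha subunit of pyruvate dehydrogenase, was higher in the knockout. It read 1086 in the knockout against 887 in the wild type (0.30, 1.23-fold), and 301 against 282 (0.10) in a second probe set, which was within the SD, as was the median of both (0.20). Pdk1, an inhibitory kinase induced by HIF-1, had 3 detected probe sets, all higher. They read 312 in the knockout against 271 in the wild type, 301 against 268 and 202 against 163, with differences of 0.21, 0.18 and 0.32, of which the last was past the SD. Pdk3 (254 in the knockout and 276 in the wild type, -0.11) and Pdk2 (42.3 and 40.1, 0.08) were within the SD. Pdk4, the isozyme induced by fasting, was under the floor at 8.86 in the knockout and 8.50 in the wild type. Pdk1, Pdk2 and Pdk3 were thus the detected PDK isozymes, but Pdk2 was not far above the floor. Of 16 markers of non-blood tissues 4 also lay above it, among them Ins2 at 37.4 in the knockout and 46.8 in the wild type. Being detected at such a level does not by itself show expression of Pdk2.

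Pentose phosphate genes were detected at each step analysed, and all lay within the SD by their brightest probe sets. In the oxidative branch, 6-phosphogluconate dehydrogenase (Pgd) read 898 in the knockout against 988 in the wild type, with its 4 probe sets from -0.20 to -0.10, and the lactonase gene Pgls 612 against 598 (0.04). G6pdx, the first and rate-limiting enzyme, was not analysed here. In the non-oxidative branch, the isomerase Rpia read 783 in the knockout against 886 in the wild type (-0.17). The epimerase Rpe read 181 in the knockout against 211 in the wild type (-0.22), just inside the SD, and -0.25 in its second detected probe set. Transketolase (Tkt) read 7073 in the knockout and 7057 in the wild type (0.01), with 0.02 and 0.03 in its other probe sets, and transaldolase (Taldo1) 903 against 905 (0.01). Tkt and Taldo1, which exchange carbon units between both pathways, were the members closest to 0.

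**Figure D2:**
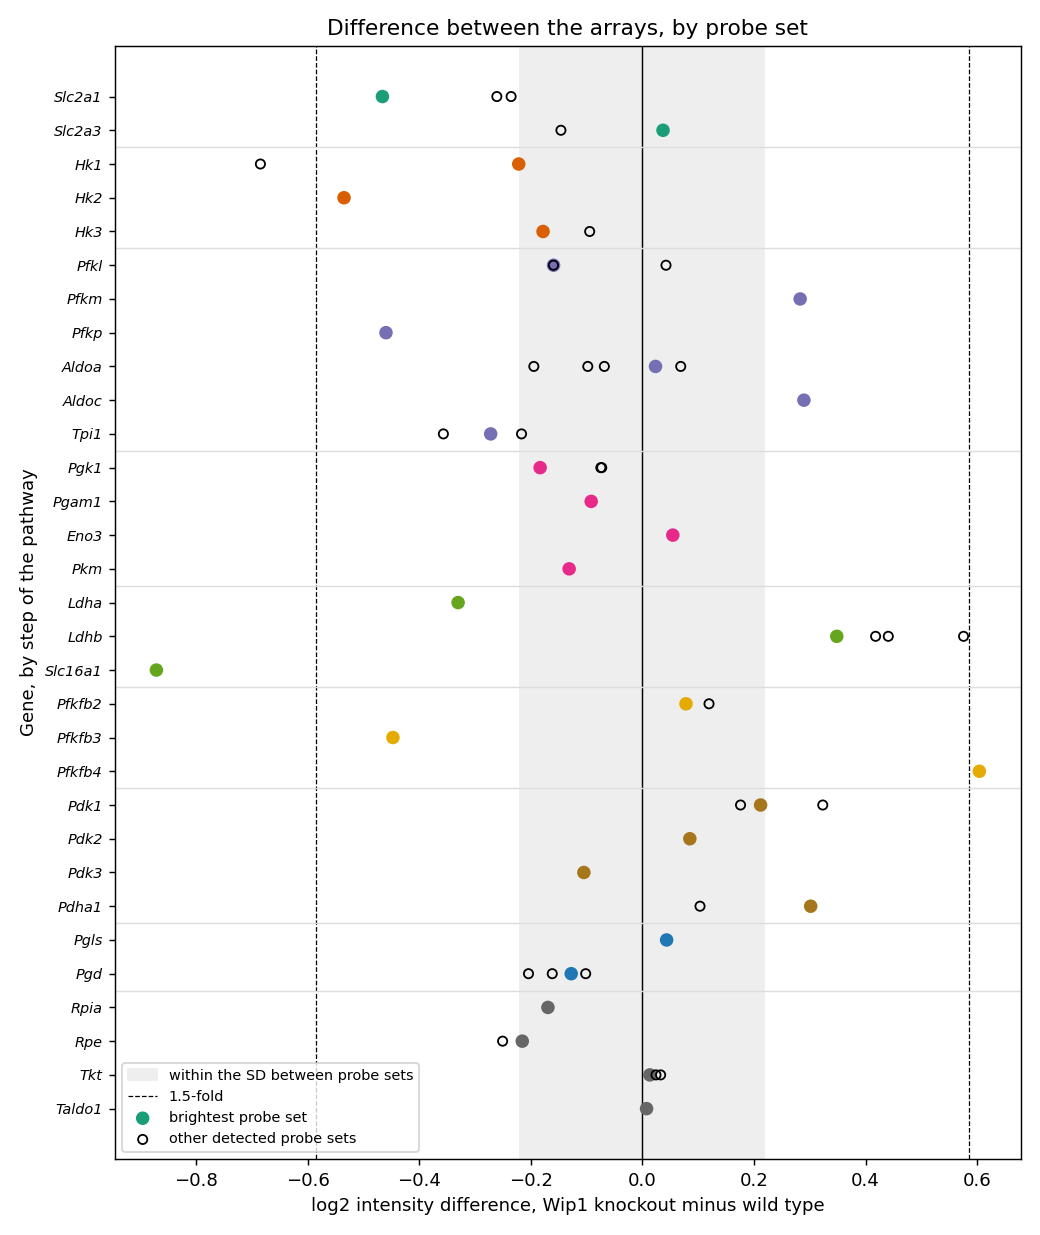
Log2 intensity difference, Wip1 knockout minus wild type, for the 31 detected genes, by step. Coloured points are the brightest probe set, open points the other detected probe sets, the grey band the SD of 0.22 between probe sets, and dashed lines 1.5-fold. Slc16a1 (-0.87) and Pfkfb4 (0.60) lie outside the dashed lines by their brightest probe sets, as does the dimmer Hk1 probe set (-0.68), all 4 Ldhb probe sets lie right of the band, and the pentose phosphate genes cluster within it apart from 1 Rpe probe set (-0.25).

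Probe sets of the same member mostly agreed in direction. Of 15 members with at least 2 detected probe sets, 12 had all of them on the same side of 0, 7 lower and 5 higher, against 56.5% of all genes with several. The 3 with both signs were Slc2a3, Pfkl and Aldoa. The SD between probe sets of these 15 genes was 0.11, against 0.22 over all genes. These comparisons were not matched for intensity or probe class, and 38 of the 73 member probe sets were of classes _s_at, _x_at or _a_at. Whether the closer agreement belongs to the pathway was not tested. The other 16 detected members rested on 1 detected probe set, among them Hk2, Pfkp, Pfkm, Ldha, Slc16a1, Pfkfb3 and Pfkfb4.

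The brightest probe sets of the detected members had a median intensity of 471, against 161 over all detected genes. Because probe sets bind with different strength, this does not rank the expression of the pathway against that of other genes. From uptake to lactate export, 12 of 18 detected genes were lower (66.7%, against 50.6% of all detected genes), with a median of -0.17. Of the 4 detected genes at pyruvate entry 3 were higher (49.4% of all detected genes), with a median of 0.15. These pool Pdha1 with the PDK kinases that switch its enzyme off, so this count and median give no direction for pyruvate entry. The 6 pentose phosphate genes had a median of -0.06. The steps were compared by description only.

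**Figure D3:**
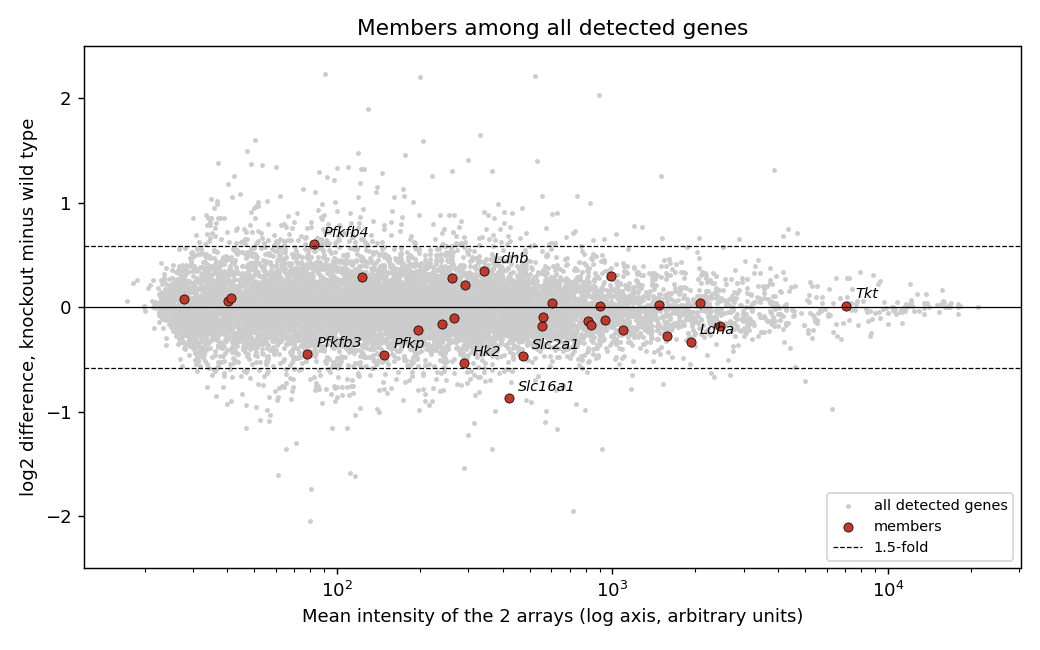
Log2 difference, Wip1 knockout minus wild type, against the mean intensity of the 2 arrays (log axis, arbitrary units) for all 11440 detected genes (grey) and the 31 members (red), with dashed lines at 1.5-fold. Slc16a1 and Pfkfb4 are the members outside the dashed lines, and all other members lie between them. The axis ends at 2.5 each way and leaves out 1 gene.

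Other genes of the pathway were given by 4 further lists. Of 13 isozymes and transporters of other tissues 11 had a probe set and 4 were detected, none past the SD. These were Hkdc1 (0.20), Slc2a4 (-0.13), Pklr (-0.11) and Slc16a7 (-0.01), while Slc2a2, Gapdhs, Pgk2, Pgam2, Ldhc, Tktl1 and Tktl2 were under the floor. Of 22 detected further enzymes 4 were lower and 2 higher past the SD (18.2% and 9.09%, against 16.6% and 17.0% of all detected genes), with a median of -0.0026. Pdp1, a phosphatase that reactivates pyruvate dehydrogenase, read 57.5 in the knockout against 88.0 in the wild type (-0.61), the ADP-dependent glucokinase Adpgk differed by -0.40, and the glucose transporter Slc2a8 by 0.38.

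Of 13 detected regulators 6 were higher and 0 lower past the SD (17.0% and 16.6% of all detected genes), with a median of 0.17. Among the higher ones, Mlxip (0.23), Hif1an (0.23) and Egln3 (0.22) were barely past the SD of 0.22. The list mixes activators such as Myc with restrainers such as Txnip, so the count has no single direction. Mycn read 176 in the knockout against 119 in the wild type (0.57), and Myc, which is known to activate glycolytic genes, 789 against 573 (0.47). Txnip, which restrains glucose uptake, read 1271 in the knockout against 978 in the wild type (0.39). Hif1a read 662 in the knockout and 632 in the wild type (0.08), within the SD, and Epas1 was under the floor. The 11 detected HIF target genes outside glycolysis had a median of -0.0045. Past the SD 3 of them were lower and 0 higher, against 16.6% and 17.0% of all detected genes. The 3 lower ones were Ddit4 (318 in the knockout against 488 in the wild type, -0.61), Higd1a (742 against 1030, -0.46) and Vegfa (187 against 241, -0.36).

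The stem cell label was checked against markers. All 10 stem cell markers with a probe set were detected, and they went both ways, with a median difference of -0.04. Past the SD, Hlf (0.70) and Kit (0.32) were higher, and Slamf1 (-0.66), Tek (-0.60) and Gata2 (-0.33) lower. Their summed intensity was 5149 in the knockout and 4809 in the wild type, a sum that bright probe sets dominate. Markers of other cells differed between the preparations. The summed intensity was 1044 in the knockout and 515 in the wild type over 6 monocyte and macrophage markers (5 detected, Adgre1 under the floor). Csf1r alone read 770.2 against 294, and the other 5 summed to 273 against 221. The sum was 678 in the knockout and 518 in the wild type over 4 B cell markers, all detected. It was 555 against 786 over 5 megakaryocyte markers (4 detected, Ppbp under the floor), 10787 against 13352 over 7 neutrophil markers, all detected, 1029 against 1127 over 7 erythroid markers (5 detected, Alas2 and Rhag under the floor), and 119 against 130.1 over 4 T cell markers (2 detected, Cd3d and Cd3g under the floor). Single bright genes weigh on these sums too. Vpreb1 read 429 in the knockout against 304 in the wild type, Mpo 3665 against 5498 and Tfrc 560 against 625. Against their sums went Ms4a1 (-0.04), Ltf (0.11) and Slc4a1 (0.49). Past the SD, 3 of 4 detected B cell markers and 3 of 5 detected monocyte and macrophage markers were higher (17.0% of all detected genes). Lower past the SD were 4 of 7 neutrophil markers and 3 of 4 detected megakaryocyte markers (16.6% of all detected genes). Of 5 detected erythroid markers 2 were lower and 1 higher past it. The part of these cell types in the differences above was not tested, and in bulk RNA fewer cells of a type and less RNA per cell cannot be told apart. As a check of the floor, 4 of 16 markers of non-blood tissues lay above it, so being detected does not by itself show expression.

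Ppm1d, the targeted gene, read 160 in the knockout against 167 in the wild type and 59.0 against 55.6 in its 2 probe sets (-0.05 and 0.10), and where these lie relative to the deleted part is not given, so they may check nothing. Xist, transcribed from the inactive X chromosome, was lower in the knockout (3778 against 6228 in its brightest probe set, -0.71). Its other probe sets differed by -0.86 and -0.58. The Y-linked Eif2s3y was higher (149 against 31.8, 2.23), the most positive difference of all detected genes. A second Eif2s3y probe set was under the floor at 5.79 in the knockout and 5.54 in the wild type. Sex is not stated. The part of sex in the differences above was not tested, and with 1 array per genotype it cannot be told apart from genotype. Pgk1, Pdk3 and Pdha1 lie on the X chromosome, and without the X-linked members 15 of 28 detected genes were lower, with a median of -0.11.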

How the data were processed

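The deposited values are linear intensities, already summarised by the authors for every probe set. MAS5 is the only program in the submitters' processing notes; its version, the background step and the scaling are not stated. In 1589 probe sets (3.53%) both deposited intensities lay within 0.00005 of a multiple of 0.5 plus 0.15845. Among them were 5 member probe sets (of Pfkp, Pgam1, Pgd and Pfkfb3). For Pfkp, Pgam1 and Pfkfb3 it was the only detected probe set, so the differences of Pfkp and Pfkfb3 past the SD rest on such values alone. The same value on both arrays was held by 2535 probe sets (5.63%). How the numbers were made is therefore unsettled, and so is its effect on small differences.

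Probe sets were named through the platform annotation: 34945 had 1 gene, 932 several and 9160 none listed. Symbols and chromosomes came from RefSeq (GRCm38.p6), which matched all 34 genes. Values under the floor, each array's median, were set to it, log2 differences were taken, and a shift of -0.01 was removed. The SD between probe sets was pooled within genes. Every member was described; of each further list, the 3 largest differences were named, and any gene named beyond these was picked with its values known. The members and lists were chosen with earlier results of these data known. No p-value is given, as 1 array per group allows no test; the number of arrays limits the precision. The procedure was tested on simulated data with 2-fold differences in bright genes, larger than that of any member. Smaller differences and dim genes were not covered by it. The alternatives changed the centring (none, quantile or loess), the floor or an offset, and which probe sets stood for a gene. Python 3.11.15, pandas 2.3.3, numpy 2.4.6 and statsmodels 0.14.6 were used.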

Additional observations from a re-analysis of the deposited data

How the results depend on the processing

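The median difference of the members stayed below 0 under all 9 alternatives, from -0.12 without centring to -0.07 with the floor added as an offset. No member past the SD between probe sets changed sign under any of them in which it was detected. The count of members past 1.5-fold was 1 instead of 2 after quantile normalization, after loess, with a floor at the 75th percentile and with the floor added as an offset. In each of these Slc16a1 remained (-0.88 to -0.84 over all alternatives), whereas Pfkfb4 was 0.54, 0.56 and 0.44 under quantile normalization, loess and the offset, and was not detected with the higher floor. When classes _s_at, _x_at and _a_at were dropped, 21 members were left, with 11 lower, and 8 past the SD (5 lower and 3 higher). Hk1, Tpi1, Ldha, Aldoc and Ldhb were the 5 past the SD that then had no detected probe set, which makes up the whole fall from 13. Pfkl was 0.04 by its only probe set outside these classes, and Slc2a1 came to -0.24 by its own. Hk1 fell inside the SD after quantile normalization (-0.18), after loess (-0.20) and with the higher floor (-0.20), and was -0.45 as a median over probe sets. Pdha1 was inside it as a median over probe sets (0.20), and Pdk1 was past it with the higher floor (0.23). Rpe was past it without centring and without a floor (-0.23 each), after loess (-0.23), after quantile normalization (-0.22), with a floor at the 25th percentile (-0.22) and as a median over probe sets (-0.23). No paired analysis was possible because each genotype has 1 array.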
